A study of Mus musculus with 24 samples.

Results

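The turnover of STAU2 targets between embryonic day 15.5 (E15.5) and E17.5 was described over protein-coding genes of mouse cortex. A gene counted as a target on a day when at least 1 bp of a deposited STAU2 peak lay in an exon of that gene on the same strand. It was gained when it had such a peak at E17.5 only, lost when at E15.5 only, and shared when on both days. The rule found 1107 gained, 2493 lost and 1865 shared genes, 5465 of the 21924 protein-coding gene symbols of the annotation and of the 6609 with an exonic peak on any of the 4 days of the series. Of the 5465 genes, 20.3% were gained, 45.6% were lost and 34.1% were shared. Of all 21924 symbols these were 5.05%, 11.4% and 8.51%, and 19.9% were listed at E15.5 and 13.6% at E17.5.

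STAU2 binds double-stranded RNA and is known to act in moving messenger RNAs to sites in the cell and in setting how long they last. In the embryonic cortex it is known for its unequal inheritance when radial glia divide, and in neurons it is found in RNA granules that move into dendrites. Around these days the cortex makes its upper-layer neurons, the last projection neurons to be born, while earlier neurons mature and extend axons.

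RNA was recovered by immunoprecipitation (RIP) from whole cortical lysate with a monoclonal antibody against STAU2, and both this RNA and that of the lysate before precipitation (input) were sequenced. The 4 groups were STAU2 RIP at E15.5, input at E15.5, STAU2 RIP at E17.5 and input at E17.5, with 3 libraries each of the 24 in the series. Cortices of a whole litter were pooled for each biological replicate, and total RNA was treated with DNase. The labels give no strain, genotype, sex or treatment.

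The values were 1 list of peaks per day and strand, in which the 3 replicates are combined, so a gene has 1 value per day, no spread between replicates and no test. The lists held 10265 peaks at E15.5 and 6341 at E17.5, with median widths of 81 and 83 bp. Read totals are not in the lists, so the depth is unknown, and a difference in depth or preparation between days cannot be told apart from one in targets. The largest deposited p was 0.00378 at E15.5 and 0.00422 at E17.5. Weaker peaks are not listed, so a lost or gained gene is one without a listed peak, not one shown to lack STAU2. Ranges in brackets after a share are 95% Clopper-Pearson intervals (exact binomial). They cover only counting error over genes or peaks, which are not replicates. Peaks were ranked within a day by the authors' p, rank 1 being the smallest.

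Sequences from the centres of strong peaks are shown first, because STAU2 recognises paired RNA. Each is 30 bases read 5′ to 3′ on the strand of the gene from GENCODE transcripts, with mm10 coordinates. Capitals mark bases that RNAfold paired in the predicted structure of the whole peak, or of the stretch common to both days for kept positions, so a partner may lie outside the bases printed. The first 4 come from gained genes at E17.5 and the next 4 from lost genes at E15.5.
Fam124a, 3' UTR, chr14:62608168-62608197: agatGCactctcGGaGCCTTTCCAGcAGGA
Ppp3ca, 3' UTR, chr3:136937498-136937527: tatttcCCCACAAACGTGACatcCAAGgaa
Fahd2a, 5' UTR, chr2:127444473-127444502: ttctccGCCCtcCCctcttGtCCTGCGgct
Sh3glb2, 3' UTR, chr2:30345229-30345258: AAGGGacctaaCCCTTtTCTGGCTGtgccc
Mycn, 3' UTR, chr12:12936862-12936891: TCgAGtctggatCTgGGTAGGGGGCAGGAC
Xiap, 3' UTR, chrX:42107499-42107528: AAttttgaaGTTATtttGTAATagttactT
Hnrnpll, 3' UTR, chr17:80029908-80029937: tcaaactcaGATtGCTgtttcttttaaaaA
Mrpl28, CDS, chr17:26125337-26125366: ccaTCTCcaccctGAGAacCCTGaGCggaG
Among these windows Xiap and Hnrnpll hold 5 and 8 G or C bases, and the other lost windows hold 19 each. The 4 gained windows hold 13 to 20. The Sh3glb2 window contains the complementary runs AAGGG and CCCTT.

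Because the lists differ in length, shares are given of each list. Shared genes made up 42.8% (41.3 to 44.3) of the 4358 genes listed at E15.5 and 62.8% (61.0 to 64.5) of the 2972 listed at E17.5. When the E15.5 list was shortened to its 6341 strongest peaks, 1494 genes were gained, 1756 lost and 1478 shared. Lost genes still outnumbered gained genes, by a smaller margin. Most genes that appeared in 1 list only rested on a single peak, 821 of the gained genes (74.2%) and 1720 of the lost genes.

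Genes with stronger peaks were more often listed on both days. In the strongest 10% of genes at E15.5, 53.9% were shared, against 32.2% in the weakest 10%. At E17.5 the corresponding shares were 69.5% and 52.5%, but the fall was not steady. The highest share there, 71.0%, was in the 10% of genes with ranks 1345 to 1833. The number of peaks in a gene went with a wider range: at E15.5, 33.2% of genes with 1 exonic peak were shared, 50.7% with 2, 58.5% with 3 and 71.3% with 4 or more. At E17.5 these shares were 56.0%, 70.5%, 76.3% and 87.7%. Exonic length showed no such order, with 45.0%, 46.6%, 40.3% and 39.3% shared in 4 groups of genes from the shortest to the longest at E15.5, and 60.3%, 63.1%, 61.8% and 65.8% at E17.5.

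**Figure D1:**
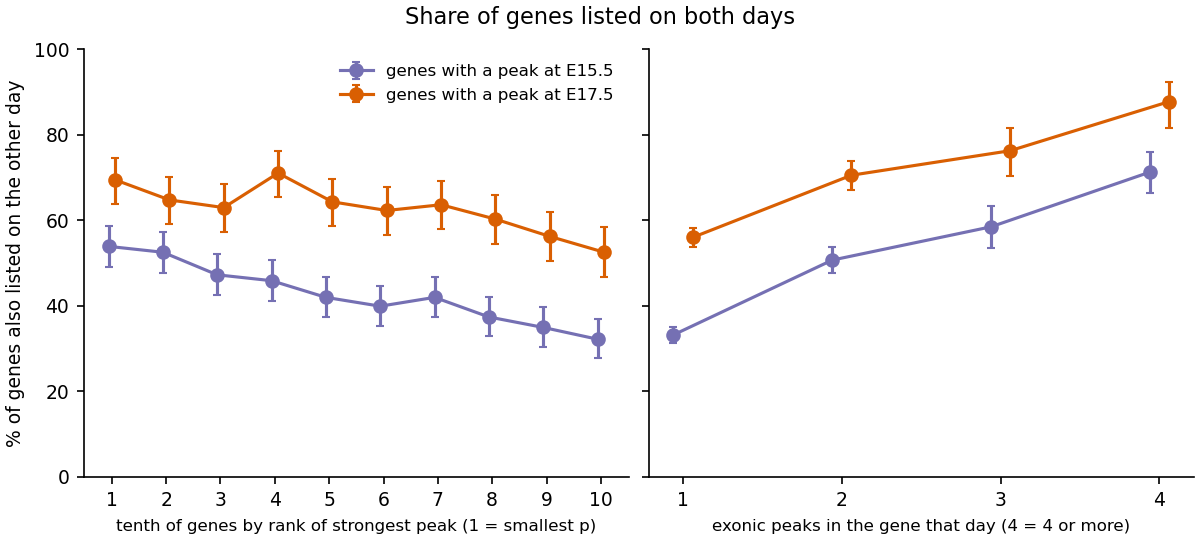
Share of genes that were also listed on the other day, in percent, by the rank of the gene's strongest exonic peak (left) and by its number of exonic peaks (right), for genes listed at E15.5 (purple) and at E17.5 (orange). Points are shares and bars are 95% exact binomial intervals. The share goes from 53.9% to 32.2% from the strongest to the weakest 10% of genes at E15.5, and reaches 71.3% and 87.7% in genes with 4 or more peaks.

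The gained gene with the smallest p was Fam124a, with 2 exonic peaks at E17.5. Its stronger peak lay in the 3' UTR (chr14:62608119-62608247) at rank 4 with a deposited p of 1.26e-06. Next came Ppp3ca, the catalytic alpha subunit of the calcium-dependent phosphatase calcineurin, whose only peak lay in the 3' UTR (chr3:136937474-136937552, rank 13, with a deposited p of 5.3e-06). Fahd2a had a peak of 52 bp in the 5' UTR at rank 14, and Sh3glb2, an endophilin-B protein, had a 3' UTR peak at rank 16. Rbm17, a spliceosome factor, was at rank 28. Bloc1s2, a subunit shared by complexes that act on lysosomes and related organelles, was at rank 29. Pstk, a kinase of selenocysteine synthesis, was at rank 30 with a peak in a noncoding exon, and Rtel1, a helicase of telomere maintenance, at rank 31. Unc79, part of the sodium leak channel complex, was at rank 60. That peak shared 1 bp with an exon, a weaker peak of 71 bp lay in the CDS (rank 4634), and 17 further peaks lay in its introns. Txnl4a, a component of the U5 spliceosomal particle, was at rank 62. Of these 10 genes, 7 had the strongest peak in the 3' UTR, and 8 had no exonic peak at E11.5 or E13.5. Rbm17 and Txnl4a had one at E11.5.

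The lost genes with the smallest p were all within the first 31 ranks of E15.5. Rcn2, a calcium-binding protein of the endoplasmic reticulum, had 3 exonic peaks, the strongest 428 bp wide in the 3' UTR (chr9:56058312-56058739, rank 4, with a deposited p of 8.98e-07). Mycn, a transcription factor of dividing progenitors, had 1 peak in the 3' UTR (chr12:12936834-12936919, rank 5, with a deposited p of 9.01e-07). Xiap, an inhibitor of caspases, had 2 exonic peaks, the stronger at rank 6 (chrX:42107487-42107540), and Hnrnpll, a splicing regulator, had 4, the strongest at rank 7. Mrpl28, a protein of the large mitochondrial ribosomal subunit, was the only gene of the 10 with its strongest peak in the CDS (rank 21). Actb, beta-actin, had 1 peak of 62 bp in the 3' UTR (chr5:142903661-142903722, rank 23). Mapre1, the microtubule end-binding protein EB1, had 1 peak at rank 25. Cbfa2t3, a transcriptional corepressor, was at rank 26, Mtf2, an accessory subunit of Polycomb repressive complex 2, at rank 29, and Anp32e, a histone chaperone, at rank 31. The GC content of the strongest peak in these 10 genes had a median of 36.5%, with 17.7% in Actb at the low end and 60.2% in Mrpl28 at the high end. In the gained genes named above with a value it lay between 33.9% in Pstk and 71.2% in Fahd2a. Of the 10 lost genes, 6 had an exonic peak at E11.5 or E13.5.

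Some lost genes had peaks in their introns at E17.5. A same-strand intronic peak was listed at E17.5 in 48 lost genes (1.93%), and at E15.5 in 33 gained genes (2.98%). Gli3, a transcription factor of Sonic hedgehog signalling, had a single 3' UTR peak at E15.5 (rank 667) and 79 intronic peaks with no exonic peak at E17.5. Chd7, a nucleosome remodeller, had 38 intronic peaks at E17.5, Hnrnpll had 15 and Polr2h had 5. None of these genes had a peak wholly within introns listed at E15.5. The only E15.5 peak of Polr2h, 1339 bp wide, had its midpoint in an intron and shared 32 bp with an exon. These genes were lost by the exon rule, while peaks wholly within their introns were listed at E17.5 only. Peaks within 1000 bp past the gene's end accounted for 8 lost genes and 1 gained gene. At the edge of the rule, the strongest peak of 18 gained and 47 lost genes shared fewer than 10 bp with an exon.

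The 3' UTR, where messenger RNAs carry many of their regulatory sites, held the largest share of strongest peaks in gained, lost and shared genes alike. The strongest peak had its midpoint in the 3' UTR in 563 gained genes (50.9%, 47.9 to 53.8) and in 1449 lost genes (58.1%, 56.2 to 60.1). It lay in the CDS in 279 gained genes (25.2%) and 578 lost genes (23.2%). A midpoint in an intron, with some other stretch of the peak in an exon, was found in 199 gained and 337 lost genes (13.5%). Among genes with the strongest peak in either the 3' UTR or the CDS, the 3' UTR share was 66.9% (63.6 to 70.0) in gained and 71.5% (69.5 to 73.4) in lost genes. In shared genes the same share was 60.8% (58.3 to 63.3) at E15.5 and 67.7% (65.3 to 70.0) at E17.5. By this share, shared genes at E15.5 were the lowest of the 4 sets, and their E17.5 peaks were close to those of gained genes. With the part read by larger overlap, it was 58.0% in gained genes and 62.8% in shared genes at E17.5.

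**Figure D2:**
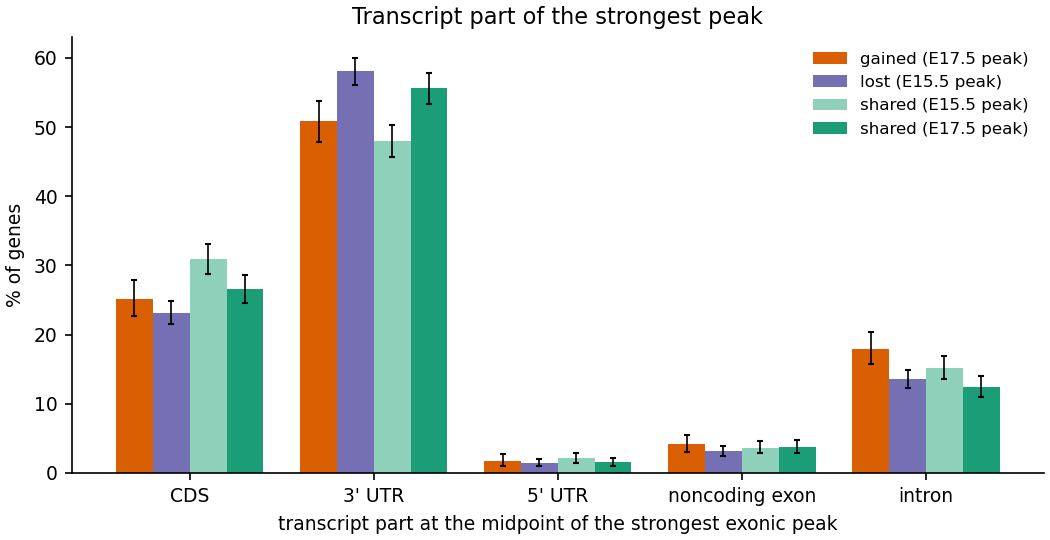
Transcript part at the midpoint of the strongest exonic peak, as a percentage of the genes of each set: gained genes at E17.5, lost genes at E15.5, and shared genes on each day. Bars are shares with 95% exact binomial intervals. The 3' UTR holds 58.1% of lost, 50.9% of gained and, in shared genes, 48.0% at E15.5 and 55.6% at E17.5.

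Lost and gained 3' UTR peaks differed in base composition. The median GC content of 3' UTR peaks was 44.0% in lost genes (2036 peaks, quartiles 35.8% and 52.0%) and 48.9% in gained genes (707 peaks, quartiles 40.6% and 54.8%). In shared genes it was 48.3% at E15.5 and 49.0% at E17.5, so the lost set is the one that stands apart. Peaks with under 40% GC made up 36.9% (34.8 to 39.1) of the lost set. They made up 22.5% (19.5 to 25.7) of the gained set, and 25.6% and 22.8% of the shared sets at E15.5 and E17.5. The lost set was also lowest for 3' UTRs as a whole, whose median GC content was 43.9% in lost, 46.5% in gained and 47.3% in shared genes. Lost genes also had longer 3' UTRs, with a median of 1381 nt against 872 nt in gained and 928 nt in shared genes. The part of 3' UTR length, of transcript abundance or of library preparation in this difference was not tested. In CDS peaks the medians were closer, at 53.1% in lost and 54.4% in gained genes.

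**Figure D3:**
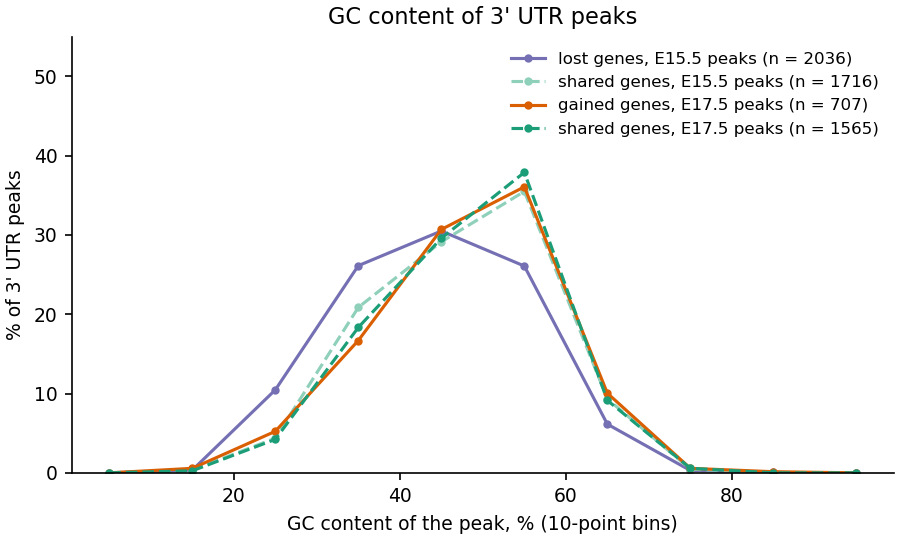
GC content of 3' UTR peaks in bins of 10 percentage points, as a percentage of the peaks of each set, for lost and shared genes at E15.5 and gained and shared genes at E17.5. The curve of lost genes lies furthest to the left, with 36.9% of peaks under 40% GC against 22.5% in gained genes.

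Shared genes often had their peaks in different places. In 878 of the 1865 shared genes (47.1%, 44.8 to 49.4) at least 1 exonic peak of E15.5 overlapped one of E17.5, and in 434 (23.3%) the strongest peaks of the 2 days overlapped each other. Overlap went with the number of peaks: it was found in 28.5% of genes with 2 exonic peaks over both days together, in 42.8% with 3, in 51.9% with 4 and in 68.7% with 5 or more. Where peaks overlapped, the pair with the smallest ranks in each gene shared a median of 68 bp (quartiles 50 and 116), which was a median of 97.9% of the shorter peak, and in 391 genes (44.5%) one peak lay wholly inside the other. In the 987 genes without overlap, the nearest peaks were a median of 486 bp apart on the genome (quartiles 118 and 2422.5), within 100 bp in 218 genes and more than 1000 bp apart in 376.

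Kept positions are shown for 3 shared genes, as the centre of the stretch that the peaks of both days cover.
Shank1, 3' UTR, chr7:44358915-44358944: TttctAGATgActttcCCCAgtTGCCcTGC
Ppil2, 3' UTR, chr16:17088440-17088469: accaagaccaaCCCTGgctataTAGGGagc
Nova2, 3' UTR, chr7:18964405-18964434: cTCTGccacctcCAGAAGctctTGGcTGGG
Shank1, a scaffold of the postsynaptic density, had 5 exonic peaks at E15.5 and 8 at E17.5. Its strongest peaks (ranks 104 and 157) both lay in the 3' UTR, and the whole 99 bp of the E15.5 peak were inside the E17.5 peak. Ppil2, a cyclophilin-like ubiquitin ligase, had 77 bp in common in the pair with the smallest ranks, and its E15.5 peak overlapped 2 further E17.5 peaks. Nova2, a neuronal splicing regulator, had 79 bp in common, the whole of its E17.5 peak. Its strongest E15.5 peak lay elsewhere in the 3' UTR, 1879 nt upstream.

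The kept gene with the smallest ranks was Dbn1, which encodes the actin-binding protein drebrin (rank 131 at E15.5 and 42 at E17.5). It had 4 exonic peaks on each day. Its strongest peaks did not coincide, and of its 2 overlapping pairs the one with the smaller ranks shared 31 bp in the 3' UTR. In the other a 58-bp peak of E17.5 lay wholly inside the same E15.5 peak. Celf3, an RNA-binding splicing regulator, had 8 exonic peaks at E15.5 and 4 at E17.5, with 7 overlapping pairs. Eif1, an initiation factor that takes part in start codon choice, had strongest peaks in the 5' UTR on both days (chr11:100319987-100320158 and chr11:100320016-100320156), and the E17.5 peak lay wholly inside the other. Cfap298 had a single peak per day, 2476 and 2461 bp wide, with 2457 bp in common. These wide peaks had their midpoints in an intron. Nop56, a protein of small nucleolar ribonucleoproteins, shared 49 bp in the CDS in one pair and a whole 88-bp E15.5 peak in another, and Nfx1 shared 61 bp in the 3' UTR. Birc6, a large ubiquitin ligase that restrains caspases, met the rule by 1 bp: its E15.5 peak ended on the base where its E17.5 peak began.

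Kept positions were wider than the others. Their median width was 124 bp at E15.5 and 129 bp on the later day. Peaks elsewhere in shared genes had medians of 89 bp and 83 bp, and those in lost and gained genes 80 bp and 84 bp. A wider peak has more room to overlap another. Of the 7433 exonic peaks at E15.5, 1059 (14.2%) were at kept positions, 2720 (36.6%) were elsewhere in shared genes and 3654 (49.2%) were in lost genes. At E17.5, 1047 of 4604 (22.7%) were kept, 2087 (45.3%) were elsewhere in shared genes and 1470 (31.9%) were in gained genes. The predicted folding energy of 3' UTR peaks is given as a median in kcal/mol per 100 nt. At E15.5 it was -22.1 at kept positions, -20.4 elsewhere in shared genes and -18.1 in lost genes. At E17.5 it was -21.4 at kept positions, -19.4 elsewhere in shared genes and -19.1 in gained genes. In CDS peaks of shared genes it was -22.9 both at kept positions and elsewhere at E15.5, and -22.6 and -23.0 at E17.5. More negative values mean a more stable predicted structure. Energy per length goes with GC content and width, and the part of these in the difference was not tested.

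In 840 shared genes (45.0%) the strongest peak lay in a different transcript part on each day. The most frequent exonic move was from CDS at E15.5 to 3' UTR at E17.5, in 207 genes, and the opposite move was found in 121. A further 678 genes had the strongest peak in the 3' UTR on both days and 253 in the CDS on both days. Part and overlap are separate readouts: 324 genes had overlapping peaks although the strongest peak was in another part, and 516 had neither an overlap nor the same part. Moves that involve an intron midpoint, such as 120 from intron to 3' UTR and 67 from 3' UTR to intron, concern peaks of which some other stretch lies in an exon.

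**Figure D4:**
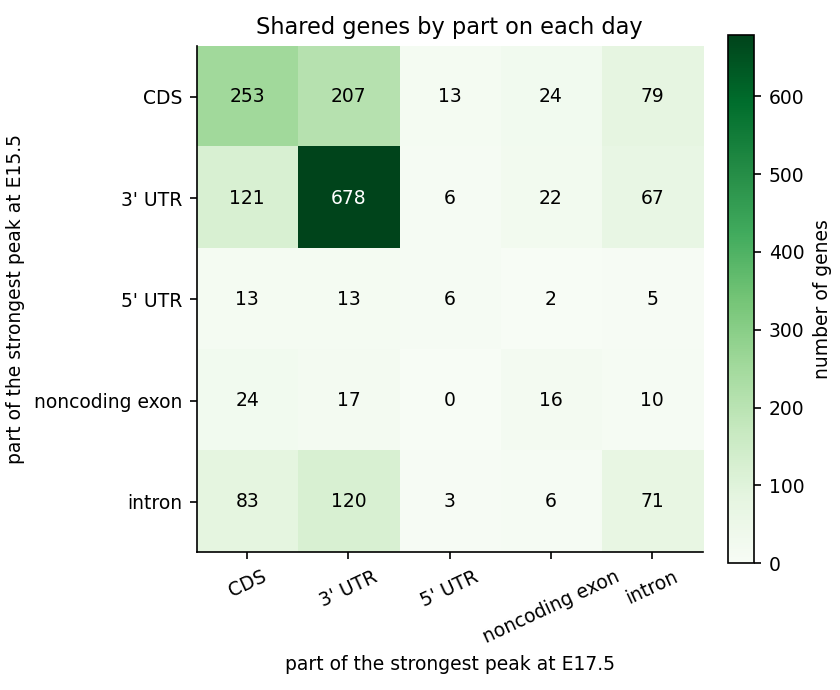
Number of shared genes by the transcript part of the strongest exonic peak at E15.5 (vertical) and at E17.5 (horizontal), with darker cells for more genes. The 3' UTR on both days is the largest cell with 678 genes, and 207 genes from CDS to 3' UTR stand against 121 from 3' UTR to CDS.

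The direction of movement was also read along the longest coding transcript. Where the strongest peaks of the 2 days did not overlap and both could be placed, the E17.5 peak was nearer the 3' end in 548 of 906 genes (60.5%, 57.2 to 63.7), with a median shift of 237 nt. Among genes with both peaks in the 3' UTR it was nearer the end in 263 of 422 (62.3%, 57.5 to 67.0), with a median shift of 230 nt. With both in the CDS it was nearer the 3' end in 82 of 166 (49.4%, 41.6 to 57.3). The share was thus above equal division in 3' UTRs, and the interval for CDS pairs includes it. How RNA quality or fragmentation differed between days was not tested, since read-level values are not in the lists.

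Moves are shown for Ap2a1, which encodes the alpha subunit of the clathrin adaptor AP-2, and for Ube2b, a ubiquitin-conjugating enzyme, as the centres of the strongest peaks of each day.
Ap2a1, E15.5, CDS, chr7:44901434-44901463: ccAGtgaccatcaacaaattCTtccAGCcc
Ap2a1, E17.5, 3' UTR, chr7:44900418-44900447: CCTtcctccctttccccatccAGGGGctGt
Ube2b, E15.5, 3' UTR, chr11:51986441-51986470: TaaTATATcCTGTTTGtATTTTtttCCAAg
Ube2b, E17.5, CDS, chr11:51986679-51986708: GTtgaGCAAaGCTGGAATgaTTCataaTAG
Ap2a1 had 1 exonic peak per day (rank 406, then rank 80), 653 nt apart on the transcript, and they lay in different parts. In Ube2b a CDS peak was listed on both days with 140 bp in common (rank 283 at E17.5). The 3' UTR peak that was strongest at E15.5 (rank 55) overlapped no peak of E17.5. A weaker peak elsewhere in the 3' UTR was listed at E17.5 (rank 3688), so both parts had peaks on both days. The strongest Ube2b peaks of the days differ in composition, with 27.4% GC in the 3' UTR peak and 43.3% in the CDS peak.

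Of the 10 moved genes with the smallest ranks, 7 went from CDS to 3' UTR and 3 the other way. An overlapping pair was listed in 7 of them and none in 3. Besides Ap2a1 these 3 were Zfp512b, a zinc finger gene, and Ice1, a subunit of the little elongation complex. Zfp512b went from 7 exonic peaks with the strongest in the CDS (rank 439) to 4 with the strongest in the 3' UTR (rank 83), and Ice1 from rank 472 in the CDS to rank 74 in the 3' UTR, 1555 nt downstream. Neither left one part for the other altogether: Zfp512b already had 3 weaker 3' UTR peaks at E15.5, and Ice1 still had a CDS peak at E17.5 (rank 1284). In Casc3, a component of the exon junction complex, the strongest peak lay 2644 nt further downstream at E17.5 (rank 460, then 92). Both parts of Casc3 had peaks on both days. In Ddx17, a DEAD-box RNA helicase, the strongest peak lay 2429 nt further downstream (rank 701, then 147). Ddx17 already had a weaker 3' UTR peak at E15.5 (rank 8987). Dhx9, an RNA helicase, moved 169 nt between overlapping peaks (rank 94, then 277). Its E15.5 peak, 326 bp wide with the midpoint in the CDS, also covered the whole of a 66-bp 3' UTR peak of E17.5. Ddit4, an inhibitor of mTOR complex 1, kept an 86-bp 3' UTR stretch while its CDS peak was listed at E15.5 only. In Polr2a, the largest subunit of RNA polymerase II, the strongest peak changed from the 3' UTR to the CDS, 452 nt upstream. Both parts of Polr2a had peaks on both days, and its strongest E17.5 peak overlapped a weaker E15.5 CDS peak (rank 10245). In Npepps, an aminopeptidase, the part labels come from different isoforms, since the CDS peak lies 559 nt downstream of the 3' UTR peak on the longest coding transcript.

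Both Staufen genes were shared. Stau2 had 2 exonic peaks at E15.5 (strongest rank 6032) and 1 at E17.5 (rank 3992), all in the 3' UTR. The nearest were 127 bp apart, and the strongest peak was 678 nt further downstream at E17.5. Stau1 had a peak of 1010 bp at E15.5 (rank 2797) that shared 26 bp with an exon, and a 3' UTR peak at E17.5 (rank 1813). Of 17 genes in a list of reported STAU2 cargo, 10 were listed at E15.5 or E17.5. Of these 10, 1 was gained, 6 were lost and 3 were shared, beside 20.3%, 45.6% and 34.1% over all genes. The lost ones included Mycn and Actb, described above, Mapk8ip1, a JNK scaffold (rank 1750), and Limk1, a kinase of actin regulators (rank 4084). Ddx1 was gained (rank 2830). Map1b, Cplx1 and Bbs2 were shared, none with overlapping peaks, which 47.1% of all shared genes had.

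Gene lists were set beside the shares over all genes, 20.3% gained, 45.6% lost and 34.1% shared. More members were lost than gained in 29 of 33 lists and more gained than lost in 4. With equal list lengths these numbers were 22 and 8. The remaining 3 lists (microRNA, histone acetylation and mTOR genes) then had as many gained as lost members. Over all genes, equal lengths gave 1494 gained and 1756 lost genes, and the stronger 50% of peaks gave 975 and 1902. Counts under equal lengths are given where the order of gained and lost turns. The part of list length in the majority of lost members was not tested. Lists overlap in membership, and no list was tested.

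Markers of the intermediate progenitors of the cortex, which express Eomes (TBR2), were mostly absent from the E17.5 list. Of 7 listed markers, 6 were lost (85.7%), none was gained and 1 was shared, beside 45.6% lost over all genes. The lost markers were Eomes itself (CDS, rank 516), the somatostatin receptor Sstr2 (rank 903), the Notch-modifying enzyme Mfng (rank 3448), and the transcription factors Insm1 (rank 8319), Neurog1 (rank 8362) and Neurog2 (rank 8548). Of these 6, 3 lay in the weaker part of the E15.5 list and fell out when the lists were made equally long. Gadd45g, a growth arrest gene, was shared, with overlapping peaks (rank 130 in the 5' UTR, then 927 in the 3' UTR). Of 8 radial glia and progenitor markers, 4 were lost (Emx2, Sox9, Prom1 and Pax6), 1 was gained (Tnc) and 3 were shared (Fabp7, Nr2e1 and Mki67). Their lost share, 50%, was near that over all genes. Nr2e1 went from rank 1771 to rank 64. In bulk tissue, fewer cells of a type and less RNA per cell cannot be told apart, and the part of cell composition in these counts was not tested.

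Genes of division and of progenitor signalling are set beside the 45.6% lost over all genes. Of 29 cell cycle and spindle genes, 18 (62.1%) were lost, 2 gained and 9 shared. The lost ones were led by Mycn, then the mitotic kinase Cdk1 (rank 944), the replication helicase subunit Mcm4 (rank 1698) and the G1 kinase Cdk6 (rank 1920). Myc (rank 1745) and the cell cycle inhibitor Cdkn1c (rank 4761) were gained. With equal lengths 10 were lost, 4 gained and 7 shared. Of 12 Notch pathway genes, 8 were lost, led by the ligand gene Dll3 (rank 1562) and the receptor gene Notch3 (rank 2115), and 2 were gained, Ncstn and Notch2. With equal lengths 6 were lost and 4 gained. Of 19 Wnt pathway genes, 11 were lost, 6 gained and 2 shared. The lost Wnt genes included Ctnnb1, which encodes beta-catenin (rank 3472), and the corepressor Tle4 (rank 651), and the gained ones Btrc, Dvl1 and Dvl2. Gsk3a, a kinase of the pathway, was shared and went from rank 1673 to rank 7, the strongest E17.5 peak among the Wnt genes.

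Neuronal markers were spread over the 3 outcomes. Of 5 deep-layer markers, 2 were gained (Ldb2 and Crym), 1 lost (Tle4) and 2 shared (Fezf2 and Tbr1, both with overlapping peaks). With the stronger 50% of peaks, 1 deep-layer marker was gained and 2 were lost. Of 4 upper-layer markers, 2 were gained (Pou3f1 and Plxna4), 1 was lost (Pou3f3, rank 359) and 1 shared (Lhx2). Of 5 interneuron markers, 2 were gained (Gad1 and Npy), 1 was lost (Sst, rank 185) and 2 were shared, Lhx6 among them. Of 15 pan-neuronal genes, 3 were gained, 6 lost and 6 shared. Ank2, which encodes a membrane scaffold of axons, was gained with rank 93, and Dcx, which encodes the migration protein doublecortin, was lost with rank 682. Markers of other cells were few: of 14 glial lineage markers 4 were listed (Nfia, Nfib, Nfix and Apoe), of 13 microglia and blood markers 1 (Csf1r, lost), and of 18 vessel and meninges markers 3 (Col4a1, Igf2 and Cldn5, all lost).

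Motor, cytoskeleton and axon guidance genes are given beside the 34.1% shared over all genes. Of 18 kinesin and dynein motor genes, 11 were shared, 4 lost and 3 gained. The shared ones with the smallest ranks were Kif3b, Dync1h1, Klc1 and Klc4. Kif1a, a motor of synaptic vesicle precursors, was gained (rank 217), and the dynein chain Dync1li2 (rank 168) and the kinesin light chain Klc2 (rank 256) were lost. With equal lengths 5 motor genes were gained and 4 lost. Of 30 neuronal cytoskeleton genes, 14 were shared, 11 lost and 5 gained, and 12 of the 14 shared ones had overlapping peaks. Cfl1, which encodes the actin-severing protein cofilin, was gained (rank 138), beside the loss of Actb and Mapre1. Tubb2a and Tubb2b, both gained, are near-identical copies, and reads that fit both make their calls uncertain. Of 22 axon guidance genes, 8 were shared (36.4%) and 11 lost, with the ephrins Efnb2 (rank 1082) and Efnb1 (rank 1142) first, and 3 were gained.

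Synaptic and channel genes are set beside 20.3% gained, 45.6% lost and 34.1% shared over all genes. Of 26 synaptic genes, 12 were shared (46.2%), 10 lost (38.5%) and 4 gained (15.4%). The gained genes were the NMDA receptor subunits Grin1 (rank 816) and Grin2b (rank 855), the scaffold Shank2 (rank 2573) and the active-zone gene Rims1 (rank 2755), all in the 3' UTR. The other listed glutamate receptor subunits were shared. The lost genes were led by 3 members of the Dlg family of scaffolds, Dlg3 (rank 246), Dlg1 (rank 1155) and Dlg4 (rank 2208). Of 14 ion channel genes, 4 were gained, 5 lost and 5 shared, with 5 gained and 3 lost at equal lengths. Within calcineurin the subunits took different courses: Ppp3ca was gained, while Ppp3cb (rank 4055) and the regulatory subunit Ppp3r1 (rank 3252) were lost. In the list that holds them, of 9 calmodulin, calcineurin and CaMKII genes, 2 were gained, 4 lost and 3 shared, and with equal lengths 3 were gained and 2 lost.

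Genes that act on RNA were often shared. Of 34 splicing factor genes, 21 (61.8%) were shared, 10 lost and 3 gained, against 34.1% shared over all genes. Overlapping peaks were found in 12 of the 21, among them Srrm2, Sf3b1 and Srsf3. The gained factors were Rbm17, Srsf11 (rank 232) and Srrm3 (rank 258), and the lost ones were led by Hnrnpll, Srsf9 (rank 325) and Rbm39 (rank 344). Of 34 RNA-binding and translation control genes, 17 were shared, 13 lost and 4 gained. Celf3, Nova2, Msi1 and Eif4g1 were the shared genes with the smallest ranks. Celf2 (rank 593) was gained and Celf1 (rank 1510) lost, so members of the Celf family took all 3 courses. Ptbp1, a repressor of neuronal splicing, was lost (rank 498). Of 9 nonsense-mediated decay factors, 5 were shared, 3 lost (Smg6 and Upf1 among them) and 1 gained (Smg5, rank 289). Of 11 microRNA processing and silencing genes, 5 were shared, 4 lost and 2 gained.

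Growth signalling and chromatin genes varied in their shared members, beside 34.1% shared and 45.6% lost over all genes. Of 13 mTOR and growth signalling genes, 9 (69.2%) were shared, 3 lost and 1 gained. Rraga, a GTPase that brings mTOR complex 1 to lysosomes, went from rank 1936 in the CDS to rank 3 in the 3' UTR, with overlapping peaks, and its relatives Rragc and Rragd were lost. Tsc1 went from rank 5135 to rank 191, while its partner Tsc2 was gained (rank 2993). Of 22 histone methylation genes, 12 were shared, 7 lost and 3 gained. Of 24 nucleosome remodelling genes, 10 were shared, 12 lost and 2 gained. Chd8 (rank 767) was gained, and Arid2 (rank 739) and Chd3 (rank 1179) were among those lost. Of 16 histone acetylation genes, 7 were shared, 7 lost and 2 gained. With the stronger 50% of peaks, lost members outnumbered shared ones among mTOR genes (6 against 3) and histone methylation genes (10 against 6). The same held over all genes at that setting, with 1902 lost and 869 shared.

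**Figure D5:**
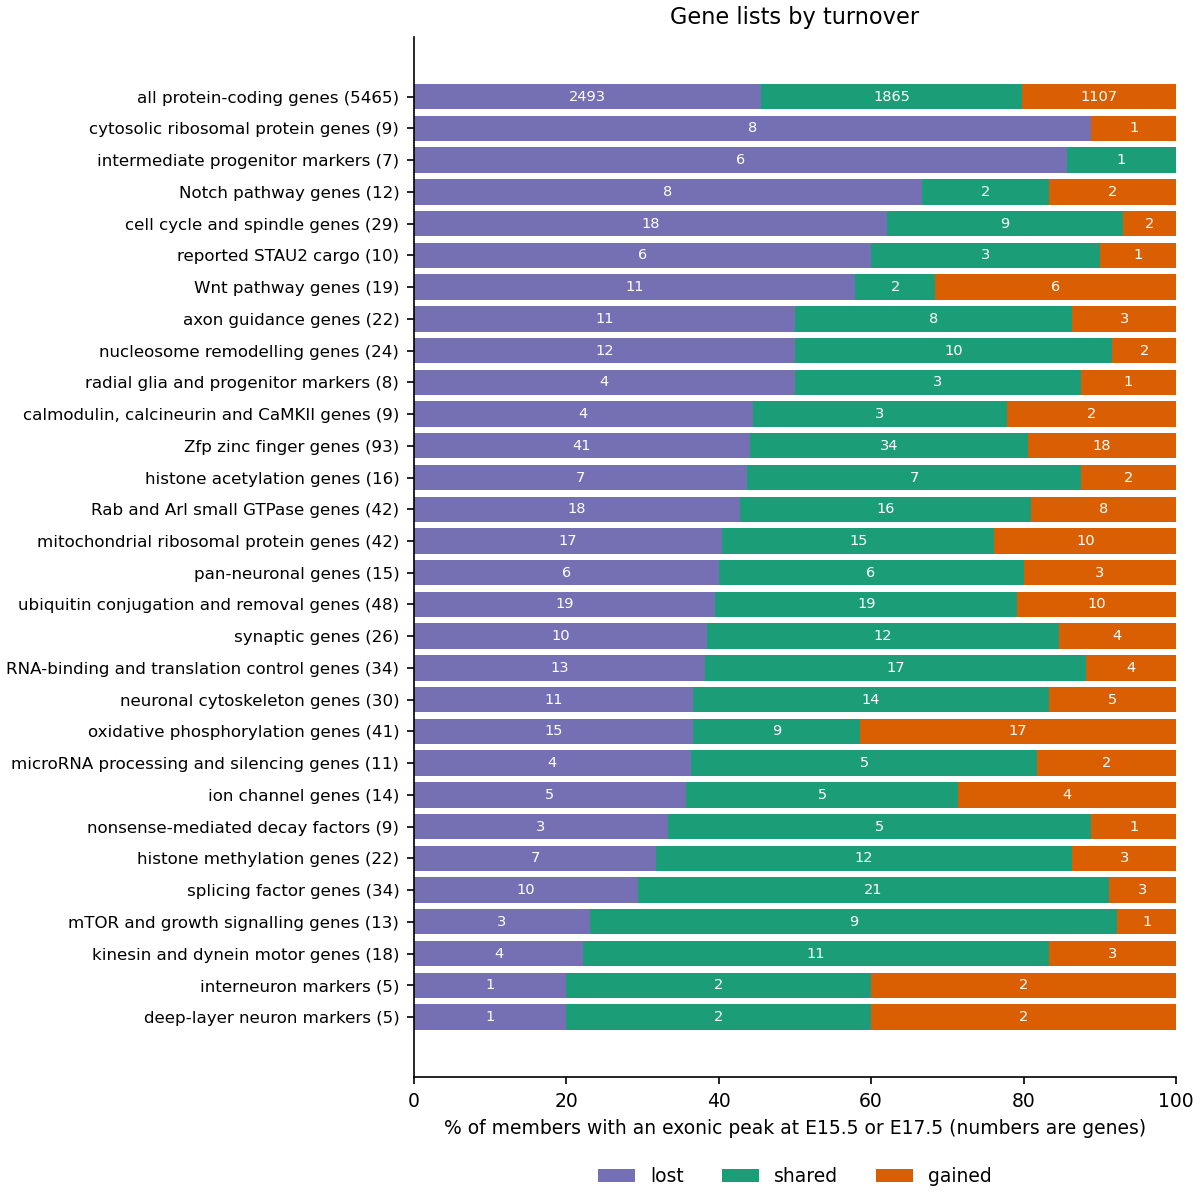
Outcome of the members of each gene list with at least 5 members listed at E15.5 or E17.5, as a percentage of those members (their number in brackets), with lost in purple, shared in green and gained in orange and gene counts inside the bars. The top bar holds all 5465 genes, and cytosolic ribosomal protein genes and intermediate progenitor markers have the largest lost shares, with 8 of 9 and 6 of 7.

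Genes for the 2 kinds of ribosome and for the respiratory chain differed. Few cytosolic ribosomal protein genes were listed, 9 of 82, of which 8 were lost, led by Rpl12 (rank 36) and Rpl11 (rank 379), and 1 was gained, Rpl37. These genes have many processed copies in the genome, and how reads that fit several copies were treated is not given in the sources used here. Of 42 listed mitochondrial ribosomal protein genes, 10 were gained, 17 lost and 15 shared, and with equal lengths 13 were gained and 12 lost. Of 41 oxidative phosphorylation genes, 17 (41.5%) were gained, against 20.3% over all genes, 15 were lost and 9 shared. The gained ones included the complex III subunit Uqcrfs1 (rank 746), the complex IV subunit Cox7c (rank 801) and the complex I subunit Ndufb8 (rank 1412). The lost ones were led by Atp5g2 (rank 1221) and Ndufv1 (rank 1676). Gained genes outnumbered lost ones 20 to 13 at equal lengths, where all genes had 1494 gained and 1756 lost. With only the stronger 50% of peaks of each day, 12 were gained and 13 lost, where all genes had 975 and 1902. The order of gained and lost thus turned in this list, while over all genes lost genes were more numerous in each setting. Among larger families, 18 Zfp zinc finger genes were gained, 41 lost and 34 shared. For ubiquitin conjugation and removal genes the counts were 10, 19 and 19, and for Rab and Arl small GTPases 8, 18 and 16, with all 3 families near the shares over all genes.

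The earlier days, which the rule did not use, differed between the 3 outcomes. Of gained genes, 777 (70.2%, 67.4 to 72.9) had no exonic peak at E11.5 or E13.5. The same held for 1356 lost genes (54.4%, 52.4 to 56.4) and 758 shared genes (40.6%, 38.4 to 42.9). The other 330 gained genes (29.8%) had been listed before and were absent from the E15.5 list, 252 of them at E13.5 and 126 at E11.5. Of lost genes, 795 (31.9%) were listed at E13.5 and 636 (25.5%) at E11.5, and of shared genes 909 (48.7%) and 587 (31.5%). Genes listed on both earlier days numbered 48 among gained (4.34%), 294 among lost (11.8%) and 389 among shared genes (20.9%). The order of the 3 outcomes was the same on each earlier day. Listing on several days also went with the number of peaks in a gene. At E15.5, 33.2% of genes with 1 exonic peak and 71.3% with 4 or more were shared. The part of peak number or strength in the order of the outcomes was not tested.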

How the data were processed

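Peak lists of STAU2 RIP against input from mouse cortex at E15.5 and E17.5 (3 RIP and 3 input libraries per day) were analysed, 4 of 8 lists, with the lists of E11.5 and E13.5 read for earlier peaks only. The labels tie all libraries of a day to the same 2 lists. Per the submitters' processing notes, Cufflinks 2.2.1, bedtools 2.17.0, TopHat2 2.0.9 and TopHat were used on mm10, with no role stated; no peak caller or test is named (not given in the sources used here). The authors deposited a score, a signal, a p-value and a q-value per peak. The deposited score and q-value were not used, the deposited signal was not compared between days because its scaling is not stated, and the deposited p-value ranked peaks within a day. Peaks are taken as the authors list them, and the lists do not state in which direction RIP and input differed.

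Peaks were assigned by strand to exons of protein-coding genes (GENCODE M21, GRCm38), counted by symbol. As a check of strand, 96.4% and 95.0% of peaks over 1 gene in the plus lists of E15.5 and E17.5 lay over plus-strand genes, and 4.33% and 3.87% in the minus lists. Transcript part was read at the midpoint, CDS before 3' UTR, 5' UTR, noncoding exon and intron. GC content was computed for peaks within 1 exon, and those up to 300 nt were folded with RNAfold 2.7.2. Python 3.11.15, pandas 2.3.3 and scipy 1.17.1 were used, and the assignment was tested on simulated data. Members and gene lists were chosen with earlier results of these data known. Named genes are the 10 gained and 10 lost genes with the smallest p, the 10 kept and 10 moved genes whose larger within-day rank percentile is smallest, the 5 lost genes with most intronic peaks, Stau1 and Stau2, and up to 4 list members per outcome by rank. Cell type marker lists are given in full where few members were listed. Predicted genes and peaks over exons of several genes were passed over in naming. Alternatives were the stronger 50% of peaks, equal list lengths, other exon, gene-model and overlap rules, and removal of peaks over 5000 bp. Some genes that these rules select are not reported here.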

Additional observations from a re-analysis of the deposited data

How the results depend on the processing

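No paired analysis was possible because each list combines the replicates of a day, and for the same reason no replicate could be left out. With only the stronger 50% of peaks of each day, shared genes numbered 869, beside 975 gained and 1902 lost, moves from CDS to 3' UTR 104 and the opposite moves 60. The share of shared genes with overlapping peaks was 41.8% when an overlap of 50% of the shorter peak was asked for, 58.8% with peaks within 100 bp, 38.9% with the stronger 50% of peaks and 42.6% with equal list lengths. The share of genes listed on an earlier day was 25.5% for gained, 33.7% for lost and 48.9% for shared genes with the stronger 50% of peaks, and 35.6% for gained and 48.1% for lost genes with all 4 lists as long as the shortest. In each of these the share was lowest for gained and highest for shared genes, at 61.6% for shared genes with lists of the shortest length. Over the exon, gene-model and wide-peak alternatives, gained genes ranged from 1078 to 1163 and lost genes from 2321 to 2592. The median GC content of lost 3' UTR peaks stayed between 43.8% and 44.6% and that of gained ones between 48.9% and 49.0%. With 3' UTR read before CDS, an alternative chosen after seeing the data, as was equal list length for GC content, 178 genes moved from CDS to 3' UTR and 105 the other way. The lists give no depth, so a gene absent from the shorter E17.5 list could lie below what was detectable there.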
